A study of Mus musculus with 12 samples.

Results

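The genes described here encode 6 mediators through which regulatory T cells (Tregs) are known to restrain other immune cells, namely Il10, Ebi3, Fgl2, Entpd1 (CD39), Nt5e (CD73) and Penk. They were taken by gene symbol from the FPKM tables (fragments per kilobase of transcript, scaled to the number of mapped fragments). These are 6 of 23352 symbols, each with 1 entry per library, and all 6 were among the 11431 genes that passed the filter on low values (2 or more libraries with an FPKM of 1 or higher). The rule that picks them uses gene symbols and no measured value, although earlier results of these data were known when the 6 were listed.

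The study measured poly(A) RNA of Tregs that were sorted from the lymph nodes and spleen of C57BL/6 females, whose ages are not given. KO Tregs came from Foxp3YFP-Cre/Foxp3WT;Ezh2fl/fl mice and HET Tregs from Foxp3YFP-Cre/Foxp3WT;Ezh2fl/+ mice, and each genotype was sorted into CD62Llo and CD62Lhi cells. CD62L is a lymph node homing receptor that resting T cells carry and activated T cells shed. The 4 groups were thus KO CD62Llo, HET CD62Llo, KO CD62Lhi and HET CD62Lhi, labelled with 3 libraries each, and HET CD62Lhi replicate 3 was left out as its label directs, which leaves 11 libraries. All 4 groups carry the Cre and at least 1 floxed Ezh2 allele, so no group stands for mice without either. Foxp3 lies on the X chromosome, so females with 1 Cre allele also hold Tregs that never express the Cre, and the labels do not say which Tregs were sorted beyond CD62L.

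Ezh2 is the catalytic subunit of Polycomb repressive complex 2, which methylates histone H3 at repressed genes. IL-10 is a secreted cytokine that dampens antigen-presenting cells and inflammation. EBI3 is a cytokine chain that pairs with the product of Il12a to form IL-35 or with the product of Il27 to form IL-27. FGL2 is a fibrinogen-like protein, secreted by Tregs, that binds Fc gamma receptors on antigen-presenting cells. CD39 and CD73 act one after the other at the cell surface: CD39 removes phosphates from extracellular ATP and ADP to give AMP, and CD73 turns AMP into adenosine, which quiets T cells through adenosine receptors. Penk encodes proenkephalin, the precursor of opioid peptides, and is expressed by Tregs as well as by neurons.

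In the authors' mm10 coordinates Il10 lies at chr1:131019845-131024970, Ebi3 at chr17:55952623-55957022, Fgl2 at chr5:21372673-21378386, Entpd1 at chr19:40659794-40741602 and Nt5e at chr9:88327609-88372089, all on the plus strand. Penk lies on the minus strand at chr4:4133536-4138445. Fgl2 sits inside Ccdc146, which runs on the other strand and had 0.0241 to 0.0982 FPKM over the 11 libraries. In the GENCODE annotation Ebi3 overlaps an antisense gene and Penk a transcript on the opposite strand. The labels do not state whether reads were counted by strand, so reads of such pairs cannot be told apart. The Entpd1 entry starts 24 bases after the more downstream of its RefSeq starts, and the values are whole-gene values that do not resolve its alternative promoters.

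The 250 bases upstream of the transcript start are shown for the members with a RefSeq promoter (build GRCm38.p6), because the mediators moved together between the sorted gates. They lie on the plus strand at chr17:55952373-55952622 (Ebi3), chr5:21372423-21372672 (Fgl2), chr19:40659520-40659769 (Entpd1, the start nearest the authors' entry) and chr9:88327359-88327608 (Nt5e), and capitals mark an AP-1 match (TGANTCA) or a STAT match (TTCNNNGAA), searched on both strands.
Ebi3: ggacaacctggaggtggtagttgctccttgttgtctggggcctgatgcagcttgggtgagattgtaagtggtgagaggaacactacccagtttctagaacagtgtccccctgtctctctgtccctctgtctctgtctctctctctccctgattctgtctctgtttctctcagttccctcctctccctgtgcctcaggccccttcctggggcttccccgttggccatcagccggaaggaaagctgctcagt
Fgl2: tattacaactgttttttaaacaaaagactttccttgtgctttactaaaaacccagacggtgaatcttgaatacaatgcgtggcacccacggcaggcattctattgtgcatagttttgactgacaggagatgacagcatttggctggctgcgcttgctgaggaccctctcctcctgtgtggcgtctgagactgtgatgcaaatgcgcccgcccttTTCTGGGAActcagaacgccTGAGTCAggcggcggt
Entpd1: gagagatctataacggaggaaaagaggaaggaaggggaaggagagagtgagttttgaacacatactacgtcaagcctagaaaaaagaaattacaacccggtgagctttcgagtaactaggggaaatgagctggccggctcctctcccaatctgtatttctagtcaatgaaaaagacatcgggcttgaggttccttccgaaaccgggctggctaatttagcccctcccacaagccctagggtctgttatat
Nt5e: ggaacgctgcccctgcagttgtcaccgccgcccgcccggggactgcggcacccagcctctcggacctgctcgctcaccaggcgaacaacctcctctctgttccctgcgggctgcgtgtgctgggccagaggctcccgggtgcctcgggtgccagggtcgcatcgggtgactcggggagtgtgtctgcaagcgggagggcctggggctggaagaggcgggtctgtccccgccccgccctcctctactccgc
Among these windows the Fgl2 promoter is the one with capitals. Its AP-1 match, TGAGTCA, begins 16 bases before the start, and its STAT match, TTCTGGGAA, begins 36 bases before it, with no overlap between them. Of 32851 RefSeq promoter windows of the same length, 6.75% hold an AP-1 match and 7.02% a STAT match. The NFAT core GGAAA, which 55.6% of windows hold, occurs once each in the Ebi3 and Fgl2 windows, in 2 places in the Entpd1 window and nowhere in the Nt5e window. The Nt5e window has 72.0% G and C, against a median of 52.4% over all windows, and the others have 56.0% (Ebi3), 49.6% (Fgl2) and 47.2% (Entpd1). These are matches of letters and were not tied to binding.

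The 11 libraries had an implied depth of 5620000 to 20420000 fragments, estimated from the intervals around the deposited FPKM, and log2 values correlated at 0.949 to 0.978 within groups and at 0.925 to 0.966 between groups, ranges that overlap. Ezh2 itself had 12.5, 16.8 and 14.4 FPKM in KO CD62Llo and 18.2, 17.8 and 20.5 FPKM in HET CD62Llo libraries, then 9.15, 11.5 and 11.02 FPKM in KO CD62Lhi and 12.7 and 12.5 FPKM in HET CD62Lhi libraries. Every KO library was thus below every HET library of the same gate, although neither difference passed the test (limma adjusted p = 0.113 and 1) and the whole-gene value does not resolve the floxed part. Foxp3 averaged 84.2, 88.0, 87.8 and 91.8 FPKM in KO CD62Llo, HET CD62Llo, KO CD62Lhi and HET CD62Lhi Tregs. KO CD62Llo replicate 3 stood apart: it correlated at 0.949 and 0.950 with the other libraries of its group, but at 0.953 to 0.963 with the 5 CD62Lhi libraries, and it had more of the B cell markers given below. For the mediators, the changes between gates in KO and between genotypes in CD62Llo are therefore given with and without it. Most other values that rest on it are given with it alone. The labels do not say whether libraries came from separate animals, so the p-values below measure the spread between these libraries, which may be technical.

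The first comparison asked how the mediators differ between activated-type CD62Llo and resting-type CD62Lhi Tregs. In KO CD62Llo Tregs 5 of the mediators rose, with Il10 short of the threshold, and in HET CD62Llo Tregs all 6 rose. No CD62Llo library overlapped a CD62Lhi library of its genotype for any of the 6. Tests were made with limma on log2(FPKM + 1), with Benjamini-Hochberg adjustment over all genes tested at a threshold of 0.05. In KO Tregs 5 of 6 passed as higher, where 11.9% of all genes tested did. In HET Tregs 6 of 6 did, against 18.8% of all genes. Genes whose groups did not overlap, higher in CD62Llo, made up 24.3% of genes in KO and 36.1% in HET. The median log2 change of the 6 was 1.62 in KO and 2.40 in HET, against 0.05 in KO and 0.07 in HET over all genes tested. In bulk RNA, fewer expressing cells and less RNA per cell cannot be told apart, and this holds for every value below.

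**Figure D1:**
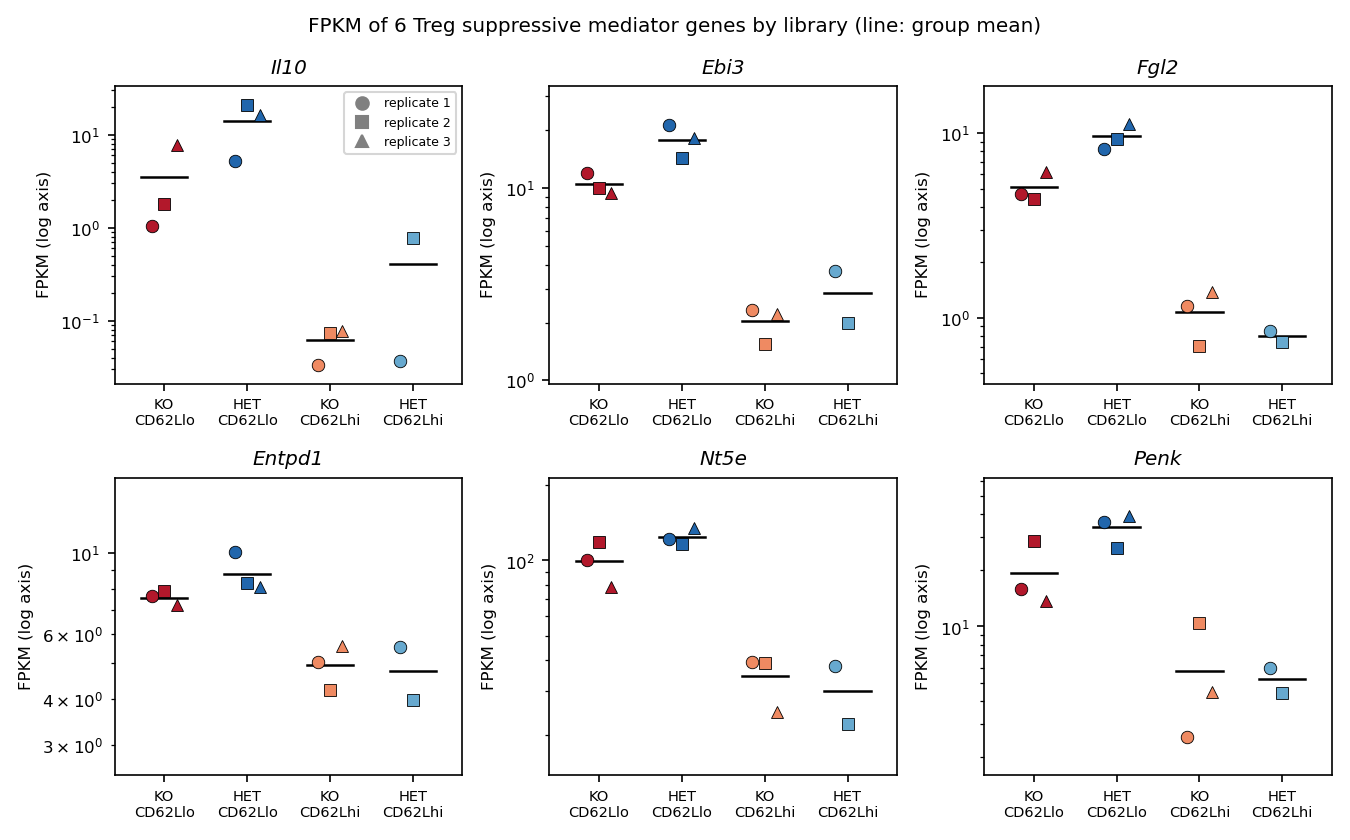
FPKM of each gene (log axis, a different range in each panel) in the KO CD62Llo, HET CD62Llo, KO CD62Lhi and HET CD62Lhi libraries; marker shapes are replicate numbers and lines are group means. All CD62Llo points lie above the CD62Lhi points of the same genotype, and the KO CD62Llo points lie wholly below the HET CD62Llo points for Ebi3, Fgl2 and Entpd1.

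Of the secreted mediators, Il10 was the most nearly restricted to CD62Llo cells. It had 1.05, 1.82 and 7.67 FPKM in KO CD62Llo libraries and 5.15, 20.8 and 16.1 FPKM in HET CD62Llo libraries. In CD62Lhi Tregs it had 0.0338, 0.0731 and 0.0775 FPKM in KO libraries and 0.0370 and 0.784 FPKM in HET libraries. These low levels correspond to an implied 1.71 to 19.8 fragments per library, so they are near the limit of detection and no ratio is formed against them. The CD62Llo minus CD62Lhi change was 1.796 ± 0.57 on the log2(FPKM + 1) scale in KO (SE, adjusted p = 0.0633) and 3.28 ± 0.64 in HET (adjusted p = 0.00445). Without KO CD62Llo replicate 3 the KO change was 1.18 (adjusted p = 0.137). The KO value passed with a pseudocount of 0.1 (log2 change 4.01, adjusted p = 0.0107) or 0.5 (2.46, adjusted p = 0.0314), which weigh low levels more. It also passed with library weights (adjusted p = 0.0323), without KO CD62Llo replicate 1 (adjusted p = 0.0448) and without HET CD62Llo replicate 1 (adjusted p = 0.0336). Over the 21 alternatives its adjusted p ran from 0.0107 to 0.147, most of them above the threshold.

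Ebi3 had 11.9, 10.1 and 9.46 FPKM in KO CD62Llo and 21.2, 14.3 and 18.2 FPKM in HET CD62Llo libraries. In CD62Lhi Tregs it had 2.33, 1.54 and 2.21 FPKM in KO and 3.71 and 2.00 FPKM in HET libraries. The CD62Llo level was 5.17 times the CD62Lhi level in KO (log2 change 1.93 ± 0.19, adjusted p = 2.4e-04) and 6.28 times in HET (2.31 ± 0.22, adjusted p = 7.5e-05). The chains that EBI3 pairs with were at very low levels. Il12a had 0 to 0.0449 FPKM in KO CD62Llo, 0.0359 to 0.0655 FPKM in HET CD62Llo, 0.262 to 0.560 FPKM in KO CD62Lhi and 0.0951 to 0.114 FPKM in HET CD62Lhi libraries. Il27 had 0 to 0.209 FPKM over the 11 libraries, and neither gene passed the filter. Il12a was lower in each CD62Llo library than in any CD62Lhi library, at levels too low to test. The B cell markers given below were likewise lower in CD62Llo libraries and highest in KO CD62Lhi replicate 3, the library with the most Il12a, and their part in the Il12a levels was not tested.

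Fgl2 had 4.70, 4.39 and 6.19 FPKM in KO CD62Llo and 8.25, 9.35 and 11.3 FPKM in HET CD62Llo libraries. Its CD62Lhi levels were 1.16, 0.706 and 1.38 FPKM in KO and 0.846 and 0.741 FPKM in HET libraries. The CD62Llo level was 4.72 times the CD62Lhi level in KO (log2 change 1.55 ± 0.16, adjusted p = 2.5e-04) and 12.1 times in HET (2.56 ± 0.17, adjusted p = 1.6e-05).

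The adenosine-producing pair differed in both level and size of change. Entpd1 had 7.62, 7.87 and 7.20 FPKM in KO CD62Llo, 10.1, 8.27 and 8.06 FPKM in HET CD62Llo, 5.05, 4.22 and 5.58 FPKM in KO CD62Lhi, and 5.54 and 3.97 FPKM in HET CD62Lhi libraries. Nt5e had 101, 119 and 78.3 FPKM in KO CD62Llo, 121, 116 and 134 FPKM in HET CD62Llo, 39.3, 38.8 and 24.8 FPKM in KO CD62Lhi, and 37.6 and 22.1 FPKM in HET CD62Lhi libraries. Nt5e was the most abundant of the 6 mediators in every library. Entpd1 had the smallest change of the 6, with a CD62Llo level 1.53 times the CD62Lhi level in KO (log2 change 0.53 ± 0.12, adjusted p = 0.0174) and 1.85 times in HET (0.77 ± 0.14, adjusted p = 0.00269). The KO value for Entpd1 missed the threshold without KO CD62Llo replicate 1 (adjusted p = 0.0508), KO CD62Llo replicate 2 (0.0641) or KO CD62Lhi replicate 2 (0.0667). The Nt5e level in CD62Llo was 2.89 times that in CD62Lhi in KO (1.51 ± 0.23, adjusted p = 0.0024) and 4.15 times in HET (2.06 ± 0.26, adjusted p = 4.0e-04). The ratio of Nt5e to Entpd1 FPKM was 13.1 ± 2.11 in KO CD62Llo, 14.3 ± 2.30 in HET CD62Llo, 7.13 ± 2.43 in KO CD62Lhi and 6.18 ± 0.863 in HET CD62Lhi libraries (SD, n = 3, 3, 3 and 2). The surface enzyme that completes adenosine synthesis thus gained more transcript than the one before it, and both CD62Llo groups lay above both CD62Lhi groups in this ratio, with no test of the ratio itself.

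Penk varied more between libraries than Nt5e in 3 of the 4 groups, by coefficient of variation. It had 15.9, 28.6 and 13.6 FPKM in KO CD62Llo and 36.1, 26.4 and 39.2 FPKM in HET CD62Llo libraries, against 2.56, 10.4 and 4.46 FPKM in KO CD62Lhi and 6.00 and 4.41 FPKM in HET CD62Lhi libraries. The CD62Llo level was 3.34 times the CD62Lhi level in KO (log2 change 1.68 ± 0.40, adjusted p = 0.0194) and 6.51 times in HET (2.48 ± 0.45, adjusted p = 0.00291). The KO call was lost with library weights (adjusted p = 0.0658) and with only the KO libraries fitted (0.0662). It was also lost without KO CD62Llo replicate 2 (0.0756), KO CD62Lhi replicate 1 (0.0624) or KO CD62Lhi replicate 3 (0.0625). Without KO CD62Llo replicate 3, the same 5 of 6 mediators passed for CD62Llo against CD62Lhi in KO, with log2 changes of 1.99 for Ebi3, 1.43 for Fgl2, 0.56 for Entpd1, 1.67 for Nt5e and 1.89 for Penk.

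**Figure D2:**
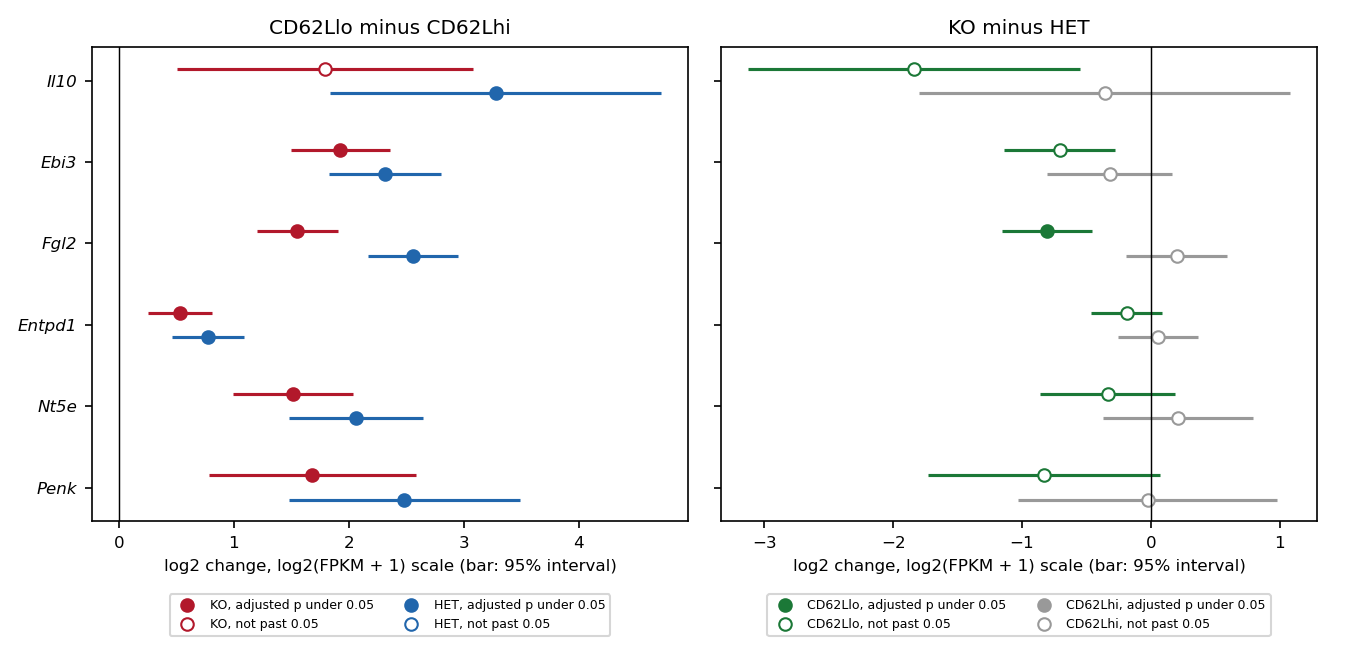
Log2 change of each gene on the log2(FPKM + 1) scale with its 95% interval from limma, CD62Llo minus CD62Lhi (left) and KO minus HET (right); filled points passed an adjusted p of 0.05. All changes on the left are above 0, with Il10 in KO the open point, and on the right Fgl2 in CD62Llo Tregs is the filled point.

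The second comparison asked how the mediators differ between KO and HET genotypes among activated-type CD62Llo Tregs. All 6 had a lower mean in KO CD62Llo than in HET CD62Llo Tregs, and Fgl2 passed the test. Fgl2 averaged 5.09 ± 0.961 FPKM in KO CD62Llo and 9.62 ± 1.53 FPKM in HET CD62Llo Tregs (SD, n = 3 each), a log2 change of -0.80 ± 0.16 (SE, limma adjusted p = 0.0212). So 1 of 6 was called lower, where 3.25% of all genes tested were, and the median log2 change was -0.76 against -0.03 over all genes. The Fgl2, Ebi3 and Entpd1 libraries of KO CD62Llo lay wholly below those of HET CD62Llo, which was so for 13.7% of all genes, and a log2 change below 0 was found for 58.4%.

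Il10 averaged 3.51 ± 3.62 FPKM in KO CD62Llo and 14.03 ± 8.04 FPKM in HET CD62Llo Tregs, so the KO mean was 25.04% of the HET mean, but KO replicate 3 lay above HET replicate 1. Its log2 change of -1.84 ± 0.57 had a 95% interval of -3.13 to -0.55 and an adjusted p of 0.115. Without KO CD62Llo replicate 3, the library with the most Il10 of its group, the change was -2.46 (adjusted p = 0.0393), and without HET CD62Llo replicate 1 it was -2.39 (adjusted p = 0.0429). Ebi3 averaged 10.5 ± 1.28 FPKM in KO CD62Llo and 17.9 ± 3.47 FPKM in HET CD62Llo Tregs, with a log2 change of -0.71 ± 0.19 (adjusted p = 0.0765). Both secreted cytokine genes had p-values under 0.05 before adjustment, as did Fgl2, so 3 of 6 did, beside 18.9% of all genes.

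The surface enzymes and Penk had smaller or less certain differences. Entpd1 averaged 7.57 ± 0.341 FPKM in KO CD62Llo and 8.79 ± 1.09 FPKM in HET CD62Llo Tregs (log2 change -0.19, 95% interval -0.47 to 0.09, adjusted p = 0.454). Nt5e averaged 99.3 ± 20.3 FPKM in KO CD62Llo and 124 ± 9.35 FPKM in HET CD62Llo Tregs (-0.34, -0.86 to 0.19, adjusted p = 0.479). Penk averaged 19.4 ± 8.05 FPKM in KO CD62Llo and 33.9 ± 6.71 FPKM in HET CD62Llo Tregs (-0.83, -1.73 to 0.07, adjusted p = 0.304). The Nt5e and Penk libraries of KO replicate 2 overlapped the HET range. As a share of the HET mean, the KO means were 86.0% for Entpd1, 80.0% for Nt5e, 57.1% for Penk, 58.6% for Ebi3 and 52.9% for Fgl2.

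No label pairs the libraries of these CD62Llo groups. Deviations of same-numbered replicates from their group means correlated weakly, at 0.165, 0.153 and 0.148, against -0.237 to 0.0844 for other pairs. The replicate number as a block is thus a pairing taken from these same data. With it, Fgl2 (limma adjusted p = 0.00565), Ebi3 (0.00979) and Il10 (0.0497) passed, so 3 of 6 were called. The Fgl2 call was lost with a pseudocount of 0.1 (adjusted p = 0.0587), with only these 2 groups fitted (0.074), and without KO CD62Llo replicate 1 (0.0892), KO CD62Llo replicate 2 (0.051), HET CD62Llo replicate 2 (0.073) or HET CD62Llo replicate 3 (0.0693). Without KO CD62Llo replicate 3, Fgl2 (log2 change -0.93, adjusted p = 0.0247) and Il10 passed, Ebi3 had -0.64 (adjusted p = 0.187), Entpd1 -0.16, Penk -0.62, and Nt5e -0.18, down in size from -0.34. Entpd1 had -0.10 without HET CD62Llo replicate 1, against -0.19 with all libraries. Over the 21 alternatives the adjusted p ran from 0.00565 to 0.0892 for Fgl2, from 0.00979 to 0.187 for Ebi3 and from 0.0393 to 0.328 for Il10, and each change stayed below 0.

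**Figure D3:**
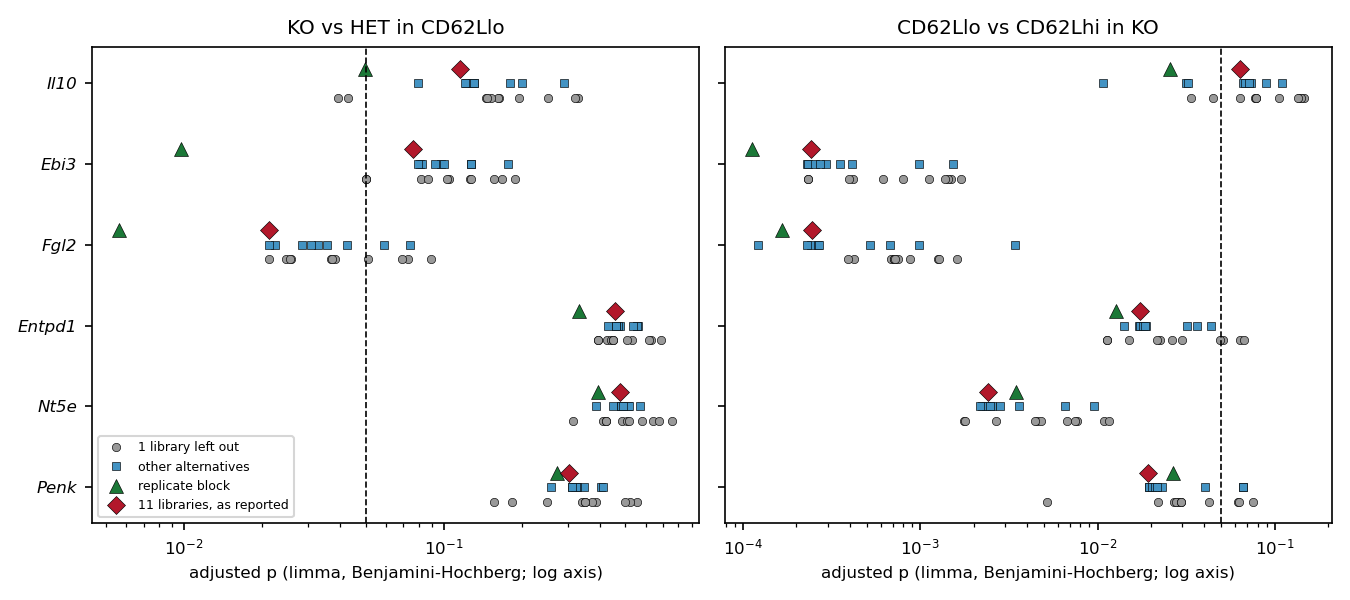
Adjusted p (limma, Benjamini-Hochberg, log axis) of each gene for KO against HET in CD62Llo (left) and CD62Llo against CD62Lhi in KO (right): diamonds use the 11 libraries as reported, triangles add the replicate block, squares are other alternatives and circles leave out 1 library. The dashed line marks 0.05; on the left Il10, Ebi3 and Fgl2 have points on both sides of it, and on the right Il10, Entpd1 and Penk do.

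Markers of other cell types moved with these groups. The summed FPKM of 18 myeloid markers was 342, 573 and 136.5 in KO CD62Llo, 332, 194 and 169.5 in HET CD62Llo, 106, 127 and 106 in KO CD62Lhi, and 164 and 103 in HET CD62Lhi libraries, with 6 of the 18 below 1 FPKM in all libraries and none at 0 in all. Lyz2 was the marker that differed most, at 124, 219 and 25.6 FPKM in KO CD62Llo and 75.2, 50.8 and 40.1 FPKM in HET CD62Llo libraries, against 7.60 to 12.9 FPKM in CD62Lhi libraries. The KO CD62Llo library with the fewest myeloid transcripts, replicate 3, had the highest Il10 and Fgl2 of its group and the lowest Ebi3, Entpd1, Nt5e and Penk. The summed FPKM of 10 B cell markers was 28.9, 29.8 and 73.9 in KO CD62Llo, 33.2, 25.3 and 38.3 in HET CD62Llo, 91.5, 91.2 and 155 in KO CD62Lhi, and 115 and 95.01 in HET CD62Lhi libraries, and none of the 10 was at 0 in all libraries. The 4 plasma cell markers summed to 3.90 to 10.6 FPKM in KO CD62Llo, 6.20 to 15.2 FPKM in HET CD62Llo, 4.73 to 6.18 FPKM in KO CD62Lhi and 2.87 to 8.30 FPKM in HET CD62Lhi libraries. The 9 CD8 T and NK cell markers summed to 37.5 to 65.9 FPKM, the 9 red cell and platelet markers to 5.21 to 317 FPKM, and the 11 stroma and endothelium markers to 37.7 to 78.7 FPKM, nearly all of it Pecam1, over the 11 libraries. Among the CD8 T and NK cell markers, Cd8a, Cd8b1 and Klrd1 were called lower in CD62Llo Tregs of both genotypes, and Klrb1c and Nkg7 higher. Cd8b1 had 8.66 to 14.3 FPKM in CD62Llo libraries and 22.8 to 33.0 FPKM in CD62Lhi libraries. The part of these cells in the differences of the mediators was not tested.

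The third comparison, KO against HET among CD62Lhi Tregs, gave no call for any mediator, as for all genes tested (0% called, with 2.87% of genes and 0 of 6 mediators at an unadjusted p under 0.05). The KO and HET CD62Lhi libraries overlapped for all 6 genes. The log2 changes were -0.36 for Il10 (95% interval -1.80 to 1.08), -0.32 for Ebi3 (-0.80 to 0.16), 0.20 for Fgl2 (-0.19 to 0.59), 0.06 for Entpd1 (-0.25 to 0.37), 0.21 for Nt5e (-0.37 to 0.80) and -0.03 for Penk (-1.03 to 0.98). With 3 KO and 2 HET libraries, these intervals include a difference of the size found in CD62Llo Tregs for Ebi3, Entpd1, Nt5e and Penk. For Il10 and Fgl2 no such comparison is made. Their CD62Lhi levels (HET means of 0.410 and 0.793 FPKM) are so low that a large fall cannot appear on the log2(FPKM + 1) scale. The Fgl2 change in CD62Lhi was 0.36 ± 0.25 (SE) with a pseudocount of 0.1. With a pseudocount of 0.1 the Il10 change in CD62Lhi was -1.12 ± 0.95 (SE), beside -2.23 ± 0.85 in CD62Llo.

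Whether the KO minus HET change differed between the gates was tested as an interaction, the change in CD62Llo less that in CD62Lhi. All 6 estimates were below 0, with a median of -0.67 against -0.01 over all genes, and 0 of 6 passed after adjustment, where 0.00875% of genes (1 gene, Mir1905) did. Fgl2 had the value with the smallest p, -1.004 ± 0.23 in limma, with an adjusted p of 0.262 and an unadjusted limma p of 0.00177. The others were -1.48 for Il10 (adjusted p = 0.714), -0.39 for Ebi3 (0.790), -0.24 for Entpd1 (0.794), -0.55 for Nt5e (0.751) and -0.80 for Penk (0.791). The interaction thus did not reach the threshold for any mediator. For Il10 and Fgl2 it carries the same limit of scale. At a pseudocount of 0.1 the Il10 value was -1.12 ± 1.27 and the Fgl2 value was -1.27.

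In order of mean level, HET CD62Llo came first and KO CD62Llo second for every mediator. For Ebi3, Fgl2 and Entpd1 the libraries of these neighbours did not overlap, while for Il10, Nt5e and Penk they did. The KO CD62Llo libraries of all 6 genes lay above those of the next group. Between the CD62Lhi groups, which overlapped for all 6, KO had the higher mean for Fgl2, Entpd1, Nt5e and Penk and HET the higher mean for Il10 and Ebi3. The authors' deposited table of group values kept the order of HET CD62Llo above KO CD62Llo, with Il10 at 4.36 FPKM in KO CD62Llo and 17.1 FPKM in HET CD62Llo. Over all 6 genes and 4 groups, the authors' deposited table gave 1.104 to 1.49 times the mean of the libraries, and how it was scaled is not stated.

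The mediators did not all vary together within groups. KO CD62Llo replicate 3 was the highest of its group for Il10 and Fgl2, 1.24 and 0.25 log2 units above the group mean, and the lowest for Ebi3, Entpd1, Nt5e and Penk, 0.06 to 0.41 units below it. HET CD62Llo replicate 1 was lowest in Il10 (1.10 units below its group mean) and Fgl2 (0.19 below) and highest in Ebi3 and Entpd1 (0.25 and 0.18 above). Among the CD62Llo groups Il10 had the widest spread, with a coefficient of variation of 103% in KO CD62Llo and 57.3% in HET CD62Llo, and Entpd1 one of the narrowest, with 4.51% in KO CD62Llo and 12.4% in HET CD62Llo.

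**Figure D4:**
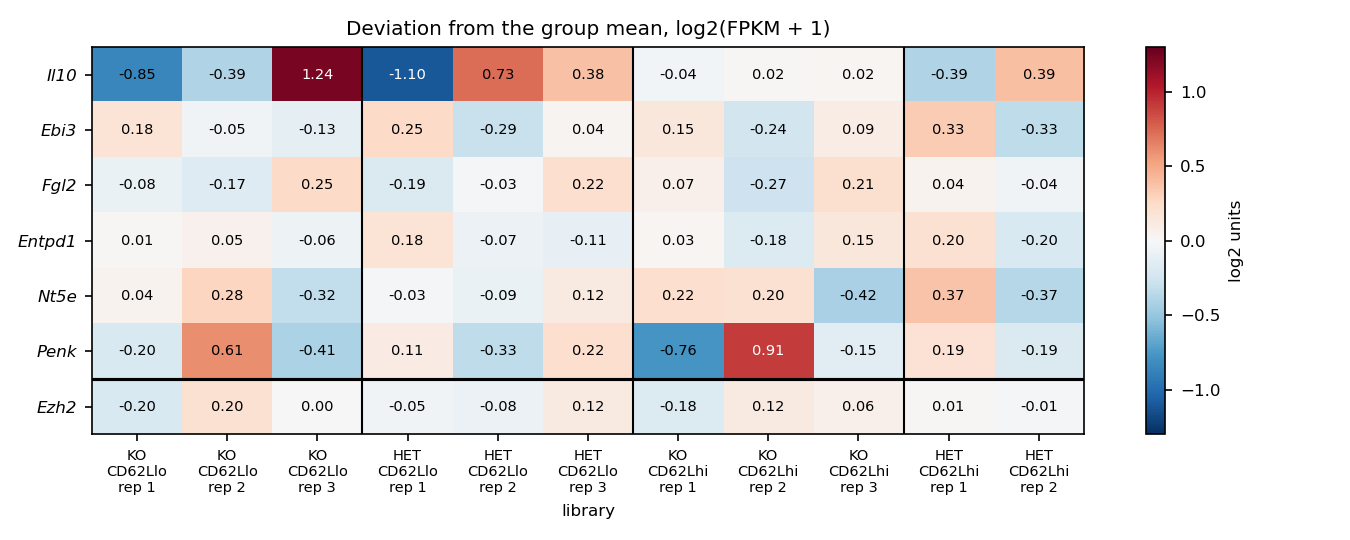
Deviation of each library from its group mean in log2(FPKM + 1) units (red above, blue below), for the 6 genes and, under the line, Ezh2. In KO CD62Llo replicate 3, Il10 (1.24) and Fgl2 (0.25) are above the group mean while Ebi3, Entpd1, Nt5e and Penk are below it.

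The genes whose pattern was most like that of each mediator over the 11 libraries were found by Pearson's r of log2(FPKM + 1), among 7923 genes with a mean of at least 5 FPKM in their highest group; the libraries share the gate and genotype differences, so the values are descriptions. Il10 was most like Dpp8 (0.974) and Coro2b (0.974). Ebi3 was most like Itgae (0.991), Dtx3 (0.990) and Zdhhc2 (0.987). Fgl2 was most like Ahnak (0.993) and Ptpn13 (0.988). Itgae encodes an integrin chain of tissue T cells. It had 30.2, 36.3 and 30.4 FPKM in KO CD62Llo and 57.0, 44.4 and 59.3 FPKM in HET CD62Llo libraries, which did not overlap, and its change of -0.71 on the log2 scale missed the threshold (limma adjusted p = 0.0708). Entpd1 was most like Cpox (0.974), Atad2 (0.971) and Arrdc4 (0.969), Nt5e most like Naip2 (0.984), Dhrs3 (0.983) and Smpd4 (0.981), and Penk most like Tm9sf2 (0.982), Cd164 (0.968) and Phkb (0.967).

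Most transcription factors known to act at Il10 moved with the gate. Of 12 listed and tested, 9 rose in KO CD62Llo and 10 in HET CD62Llo against the CD62Lhi gate, beside 11.9% and 18.8% of all genes, with medians of 0.98 and 1.46 on the log2 scale. In KO against HET within CD62Llo 7 fell, beside 3.25% of all genes, with a median of -0.63. Prdm1, which encodes the repressor Blimp-1 needed for Il10 in effector Tregs, had 1.23, 1.65 and 2.39 FPKM in KO CD62Llo and 4.35, 6.57 and 7.32 FPKM in HET CD62Llo libraries, with no overlap (log2 change -1.36 ± 0.18, adjusted p = 0.00512). Nfil3 averaged 8.72 ± 1.11 FPKM in KO CD62Llo and 17.1 ± 2.52 FPKM in HET CD62Llo (-0.89, adjusted p = 0.0132), and Rora, a nuclear receptor of tissue Tregs, 5.66 ± 0.700 and 11.2 ± 1.3 FPKM in KO and HET CD62Llo (-0.87, adjusted p = 0.00411). Bhlhe40, Ahr, Batf and Rbpj were the other called genes. Maf, the factor of the list with the largest CD62Llo rise, had 42.7, 57.3 and 50.8 FPKM in KO CD62Llo and 78.0, 89.8 and 88.5 FPKM in HET CD62Llo libraries, which did not overlap, but its change of -0.76 missed the threshold (adjusted p = 0.0651). Rora and Prdm1 had interaction values of -1.05 (adjusted p = 0.128) and -1.15 (adjusted p = 0.266), so none of these factors passed that test.

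**Figure D5:**
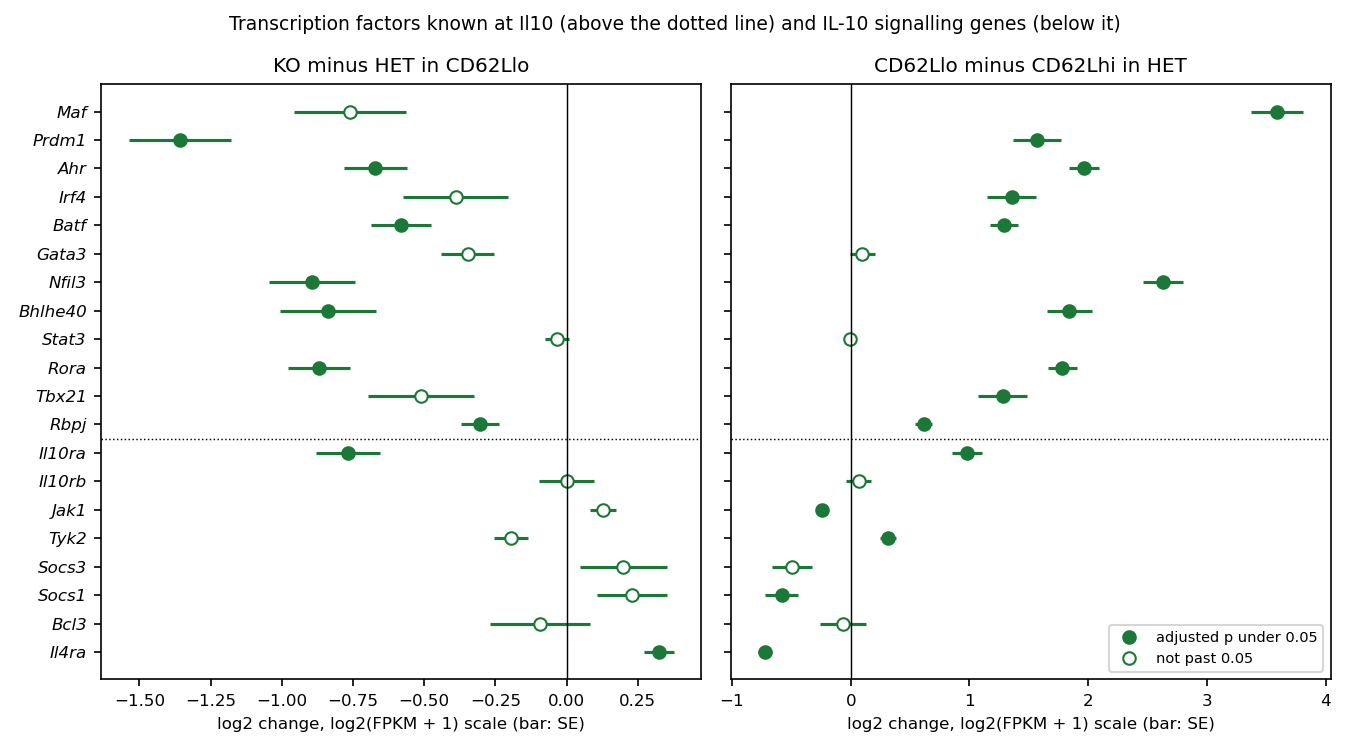
Log2 change with its SE of 12 transcription factors known at Il10 (above the dotted line) and 8 further IL-10 signalling genes (below it), KO minus HET in CD62Llo (left) and CD62Llo minus CD62Lhi in HET (right); filled points passed an adjusted p of 0.05. On the left the 12 factors lie below 0, 7 of them filled, and of the signalling genes Il10ra is filled below 0 and Il4ra above it.

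Genes that receive the signals moved less uniformly. Of 9 IL-10 signalling genes, 1 rose and 2 fell in KO CD62Llo, beside 11.9% and 4.26% of all genes. In HET CD62Llo 2 rose and 3 fell, beside 18.8% and 8.88% of all genes. In KO against HET within CD62Llo 1 rose and 1 fell, beside 1.36% and 3.25% of all genes. Il10ra, the ligand-binding receptor chain, had 14.8, 15.7 and 18.7 FPKM in KO CD62Llo and 28.3, 25.5 and 32.2 FPKM in HET CD62Llo libraries (log2 change -0.77 ± 0.11, adjusted p = 0.00783). Il10rb, the shared second chain, averaged 41.2, 41.1, 39.8 and 39.3 FPKM in KO CD62Llo, HET CD62Llo, KO CD62Lhi and HET CD62Lhi Tregs and passed in no comparison. Il4ra, the IL-4 receptor chain placed in the list because macrophages raise it in response to IL-10, was the one that rose, at 52.9 ± 2.83 FPKM in KO CD62Llo and 42.0 ± 1.77 FPKM in HET CD62Llo (0.32, adjusted p = 0.0118).

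Among 11 genes of the IL-12 family and its receptors, 6 were tested. Of these, 2 rose in KO CD62Llo and 3 in HET CD62Llo, beside 11.9% and 18.8% of all genes. In KO against HET within CD62Llo 1 fell, beside 3.25% of all genes. The gene that fell was Il12rb1, a receptor chain for IL-12 and IL-23, at 11.6, 12.4 and 12.8 FPKM in KO CD62Llo and 21.1, 24.1 and 24.6 FPKM in HET CD62Llo libraries (log2 change -0.87 ± 0.11, adjusted p = 0.00411). Il27ra and Il6st, which form the IL-27 receptor, averaged 136, 136, 124 and 127 FPKM and 68.0, 65.3, 66.7 and 65.2 FPKM in KO CD62Llo, HET CD62Llo, KO CD62Lhi and HET CD62Lhi Tregs, with no call in any comparison. Il12rb2, a chain reported for both IL-12 and IL-35 reception, had at most 0.892 FPKM in any library and was not tested.

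Of 31 other genes of purine handling and sensing, 22 were tested. In KO CD62Llo 6 rose and 1 fell, beside 11.9% and 4.26% of all genes. In HET CD62Llo 9 rose and 2 fell, beside 18.8% and 8.88% of all genes. In KO against HET within CD62Llo 1 of 22 fell, a share close to the 3.25% of all genes. The gene that fell was Adora2a, the main adenosine receptor of T cells, at 15.2, 17.6 and 14.7 FPKM in KO CD62Llo and 21.8, 23.2 and 22.4 FPKM in HET CD62Llo libraries (log2 change -0.48 ± 0.07, adjusted p = 0.00783). Ada, which breaks adenosine down, fell in CD62Llo Tregs of both genotypes, with means of 4.75 FPKM in KO CD62Llo against 7.39 FPKM in KO CD62Lhi (-0.55, adjusted p = 6.5e-04) and 3.80 FPKM in HET CD62Llo against 6.65 FPKM in HET CD62Lhi (-0.67, adjusted p = 1.9e-04). The nucleoside transporter Slc29a1 and the ATP receptor P2rx7 rose in CD62Llo Tregs of both genotypes. Slc29a1 averaged 59.7 and 62.3 FPKM in KO and HET CD62Llo against 27.8 and 30.1 FPKM in KO and HET CD62Lhi, and P2rx7 52.1 and 60.6 FPKM against 35.1 and 36.9 FPKM.

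Of 15 other opioid genes, 4 were tested. In KO CD62Llo 2 rose and in HET CD62Llo 3, beside 11.9% and 18.8% of all genes. In KO against HET within CD62Llo 1 fell, beside 3.25% of all genes. Furin, a protease of precursor proteins, averaged 20.6 ± 1.89 FPKM in KO CD62Llo and 29.6 ± 4.07 FPKM in HET CD62Llo (log2 change -0.50, adjusted p = 0.0217). Cpe, the carboxypeptidase that trims enkephalins, had 2.42 ± 0.135 and 4.10 ± 1.23 FPKM in KO and HET CD62Llo, against 0.419 ± 0.192 and 0.649 ± 0.424 FPKM in KO and HET CD62Lhi. Both rose with Penk in the CD62Llo gate. The opioid receptor genes Oprm1 and Oprd1 stayed at or below 0.146 and 0.0574 FPKM in all 11 libraries.

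The FGL2 receptor list had 3 tested genes, of which Fcgr2b, an inhibitory Fc receptor, fell in CD62Llo Tregs of both genotypes, at 0.641 FPKM in KO CD62Llo against 1.54 FPKM in KO CD62Lhi and at 0.254 FPKM in HET CD62Llo against 1.52 FPKM in HET CD62Lhi. Of all genes tested, 4.26% fell in KO CD62Llo and 8.88% in HET CD62Llo. The list as a whole did not fall: its median log2 change for CD62Llo against CD62Lhi was 0.88 in KO and 0.40 in HET, with 0 genes called higher. Fcgr2b is also a B cell gene, and the B cell markers given above moved the same way.

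Of 22 other tested Treg suppressive genes, 13 rose and 3 fell in CD62Llo Tregs of either genotype. Of all genes tested, 11.9% rose and 4.26% fell in KO, and 18.8% rose and 8.88% fell in HET. In KO against HET within CD62Llo 8 fell and 1 rose, beside 3.25% and 1.36% of all genes. The median log2 changes were 0.39 in KO, 0.79 in HET and -0.34 for KO against HET. Over all genes they were 0.05, 0.07 and -0.03. Tigit, a checkpoint receptor, had 25.4, 37.9 and 45.7 FPKM in KO CD62Llo and 93.6, 174 and 115 FPKM in HET CD62Llo libraries (log2 change -1.78 ± 0.31, adjusted p = 0.0151). Il1r2, the decoy receptor for IL-1, averaged 13.4 ± 1.75 FPKM in KO CD62Llo and 38.0 ± 9.44 FPKM in HET CD62Llo (-1.41, adjusted p = 0.00879), and the costimulator Icos 52.6 ± 7.51 FPKM in KO CD62Llo and 116 ± 20.7 FPKM in HET CD62Llo (-1.12, adjusted p = 0.00817). Pde3b, a phosphodiesterase that Foxp3 is known to repress, was the gene that rose, at 4.48 ± 1.62 and 1.95 ± 0.467 FPKM in KO and HET CD62Llo (0.86, adjusted p = 0.0405). Ctla4 (-0.59, adjusted p = 0.065), Tgfb1 (-0.04, adjusted p = 0.842) and Lrrc32 (0.04, adjusted p = 0.833), the receptor that displays latent TGF-beta on Tregs, did not pass in that comparison. In KO against HET within CD62Lhi, 0 genes passed in each of these lists, as among all genes.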

How the data were processed

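Per the labels' protocols, RNA of sorted Tregs was extracted with TRIzol and made into poly(A) libraries read as single ends of 50 bp. Per the submitters' processing notes, the build was mm10 and the authors' tools included Cufflinks 2.1.1, TopHat, CASAVA 1.8.2 and FastQC. The deposited values are FPKM per gene with their lower and upper interval bounds, which are also on the FPKM scale. Count models were not applied, because the values are not read counts. The implied depth takes each interval as 2 SD to each side, and 12.0% to 30.8% of entries above 1 FPKM lay above their own upper bound, so it is an estimate.

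Symbols with several entries (250) were summed. Using limma 3.58.1 (R 4.3.3), the 11 libraries were fitted on the log2(FPKM + 1) scale, which understates changes of low genes, with 4 group means, empirical Bayes with a mean trend and Benjamini-Hochberg adjustment over 11431 genes at 0.05. The fit was also run on simulated data, with an outcome that is not reported here. That simulation used independent normal noise for each gene, without replicate structure or outlying libraries. For KO against HET in CD62Llo, deviations of same-numbered libraries correlated at 0.165, 0.153 and 0.148; this correlation, not a label, is where the pairing comes from. In the other comparisons at least 1 pair was below 0.1 or only 2 pairs existed. The mediators and gene lists were chosen with earlier results of these data known. Named from each list were fixed genes and up to 4 called genes with the largest change per comparison, and 3 genes most like each mediator. Some genes that this rule names are not reported here. Alternatives were other pseudocounts, filters, scalings, spread models, library weights, the 2 groups alone, the replicate block and leaving out each library. Promoters came from RefSeq, and loci were compared with GENCODE, where 21437 of 23102 symbols with 1 entry lay on the same chromosome.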

Additional observations from a re-analysis of the deposited data

Results flagged for a closer look

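Penk was listed at 617 FPKM in HET CD62Lhi replicate 3, the library that the comparisons leave out. It stands here because it is a signal in data outside the comparisons, above the other HET CD62Lhi libraries (6.00 and 4.41 FPKM). The implied 1.63 fragments behind it and its deposited interval of 0 to 1583 FPKM show how little it rests on, as does the number of entries above 0 in that library, 589 of 23846. The other 5 mediators were listed at 0 there.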

How the results depend on the processing

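Over 624 recomputed changes of the 6 mediators, 590 kept their direction and their side of the threshold, 14 lost the call, 10 gained it and 10 reversed. The reversals were all in KO against HET among CD62Lhi Tregs, where no value passed: Penk to 0.0804 with library weights and 0.0295 with the replicate block, and 5 genes when 1 library was left out. Those log2 changes then ranged over -0.482 to 0.356 for Penk, -0.749 to 0.0334 for Il10, -0.647 to 0.00503 for Ebi3, -0.142 to 0.255 for Entpd1 and -0.159 to 0.583 for Nt5e, with reversals without HET CD62Lhi replicate 1 (Ebi3, Penk), HET CD62Lhi replicate 2 (Il10, Entpd1, Nt5e), KO CD62Lhi replicate 1 (Penk) or KO CD62Lhi replicate 3 (Entpd1, Penk). The cause was not tested. Leaving out single libraries gave 1187 to 1974 genes called for CD62Llo against CD62Lhi in KO (1852 with all), 1916 to 3337 in HET (3163), 0 to 5 for KO against HET in CD62Lhi (0), 182 to 610 in CD62Llo (526) and 1 to 5 for the interaction (1). It gave 3 to 6 mediators called for CD62Llo against CD62Lhi in KO, fewest without KO CD62Llo replicate 2, and 0 to 2 for KO against HET in CD62Llo. With only the 2 groups compared, 5 genes were called for KO against HET in CD62Lhi, and 109 genes and 0 mediators in CD62Llo, from fewer libraries. A pseudocount of 0.1 left 0 mediators called in CD62Llo, and the replicate block gave 3 of them and 755 genes. The interaction gave 4 genes with no filter, 3 with no mean trend and 7 with library weights. For CD62Llo against CD62Lhi in KO, deviations of same-numbered libraries correlated at 0.131, 0.0684 and 0.178, against -0.1785 to 0.0858 for other pairs. There the block gave the Il10 change a limma adjusted p of 0.0256. Apart from this and the calls for KO against HET in CD62Llo, the block changed no mediator's call. Scaling moved the split of all genes but no mediator's direction. Genes higher and lower in KO CD62Llo were 1365 and 487 as deposited, 954 and 797 after quantile normalization and 1007 and 987 after median centring. In HET CD62Llo they were 2148 and 1015, then 1431 and 1638, and 1522 and 1862, as the median of all genes moved to -0.0334 and -0.0345, against 0.0676 as deposited. For KO against HET in CD62Llo they were 155 and 371, then 237 and 310, and 226 and 281. A HET CD62Lhi group of 1 library was assumed to vary like the other groups. HET CD62Lhi had 2 libraries, and Il10 in CD62Lhi Tregs rested on few fragments.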
